A study of Homo sapiens with 6 samples.

Results

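The miR-378 family and miR-422a were examined by miRNA sequencing in Huh7, a cell line from a human liver cancer, collected 48 h after transfection. The rows of the deposited table were taken by name, which gave 6 mature miRNAs (hsa-miR-378a-3p, hsa-miR-378a-5p, hsa-miR-378c, hsa-miR-378d, hsa-miR-378i and hsa-miR-422a) of 2588 in all. In the hsa_circ_0098181 group (3 samples), the cells received the plasmid carrying hsa_circ_0098181, a circular RNA made from SOX5, and in the control group (3 samples) they received the control plasmid. Lipofectamine 2000 was used in both groups, all 6 samples came from this single cell line, and no label said whether they were separate cultures, so that p-values measure only the spread between these samples. The total was 7144798 to 10786295 counts per sample with a median of 8379124, and control replicate 3 stood apart from the other controls, with a median absolute log2 difference of 0.235 and 0.212 to control replicates 1 and 2 against 0.074 between these 2.

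miR-378a is made from an intron of PPARGC1B, the gene of the coactivator PGC-1β, which promotes the formation of mitochondria and the oxidation of fatty acids. Its precursor gives a product from each arm, miR-378a-3p and miR-378a-5p, and both are known to act on mitochondrial and lipid metabolism in liver, fat and muscle. miR-422a and the other miR-378 members come from separate genes and resemble the 3p product. A miRNA finds its targets mainly through its seed, the bases near its 5′ end, so that members with the same seed are predicted to share targets.

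The mature sequences are given here to show how few bases separate the members that were counted from those that were not. Sequences were taken from RefSeq (GRCh38.p14) for 5 of the 6 members, and hsa-miR-378d is named only. They are written 5′ to 3′ with the seed, bases 2 to 8, in capitals.
hsa-miR-378a-3p: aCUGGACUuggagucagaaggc
hsa-miR-378c: aCUGGACUuggagucagaagagugg
hsa-miR-378i: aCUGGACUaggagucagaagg
hsa-miR-422a: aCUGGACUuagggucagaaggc
hsa-miR-378a-5p: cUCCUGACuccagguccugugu

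The first 4 sequences carried the same seed, CUGGACU, which was found in 7 of the 2370 mature miRNA names of the reference (0.295%), all of them of this family. Counted from the 5′ end and against miR-378a-3p, miR-422a differed by G10A and A12G and miR-378i by U9A. miR-378c was identical to miR-378a-3p over its first 20 bases, then differed by G21A and C22G and was 3 bases longer, so that a read of 20 bases cannot be told apart between them. The seed of miR-378a-5p, UCCUGAC, was found in no other mature miRNA of the reference.

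The position of each precursor was read from GENCODE release 29 (GRCh38). MIR378A (ENSG00000199047.3, chromosome 5, 149732825 to 149732890, plus strand) lies in intron 1 of the 11 introns of PPARGC1B-201 and on the same strand as that gene (149730298 to 149855022). MIR378I (ENSG00000283829.1, chromosome 22, 41923222 to 41923297, minus strand) overlaps an exon of the only annotated transcript of TNFRSF13C, a receptor of B cells, on the same strand. MIR378C (ENSG00000264803.1, chromosome 10, 130962588 to 130962668, minus strand) and MIR422A (ENSG00000199156.1, chromosome 15, 63870930 to 63871019, minus strand) lie within no other annotated gene.

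Nearly all counts of the family were assigned to the products of MIR378A. Over the 6 libraries, miR-378a-3p was counted 16652 times and miR-378a-5p 7599 times. hsa-miR-378d was counted 58 times and hsa-miR-378i 13 times, and hsa-miR-378c and hsa-miR-422a were counted in no library. By the mean of TPM, in which each count is divided by the total of its library, miR-378a-3p took place 101 and miR-378a-5p place 132 among the 1366 miRNAs counted in any sample, against place 553 for miR-378d and 778 for miR-378i. The 6 members together made up 0.0439% to 0.0522% of a library.

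hsa-miR-378a-3p, the main product, had 2747, 2600 and 2588 reads in hsa_circ_0098181 replicates 1 to 3 and 3299, 2786 and 2632 reads in the 3 controls. In TPM, this was 344, 307 and 312 with the hsa_circ_0098181 plasmid and 306, 321 and 368 with the control plasmid. The lowest and the highest value were both found in the control group, and its mean, 332 ± 32.6 TPM (SD, n = 3), was above that of the hsa_circ_0098181 group, 321 ± 20.2 TPM (SD, n = 3). After scaling with TMM factors, which correct each library for its composition, the order of the means turned, with 334 ± 11.4 CPM (counts scaled by the corrected library total, SD, n = 3) in the hsa_circ_0098181 group and 318 ± 18.1 CPM (SD, n = 3) in the control group. On this scale the values were 346, 334 and 323 CPM against 305, 311 and 339 CPM, and the groups still overlapped, because control replicate 3 lay above hsa_circ_0098181 replicates 2 and 3. The fitted log2 fold change was 0.070 with a standard error of 0.096 (interval at 95% confidence from -0.14 to 0.28, edgeR adjusted p = 0.799), so that a level in the hsa_circ_0098181 group below 0.91 or above 1.21 times that of the control lay outside the interval. With the library size alone it was -0.046 (adjusted p = 0.889 from edgeR), while the median of all tested miRNAs moved from 0.0038 to -0.11.

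hsa-miR-378a-5p, the product of the other arm, had 1330, 1106 and 1182 reads in hsa_circ_0098181 replicates 1 to 3 and 1550, 1340 and 1091 reads in the 3 controls. With TMM factors its level was 167, 142 and 147 CPM with hsa_circ_0098181 and 143, 150 and 140 CPM in the control group. hsa_circ_0098181 replicate 1 was the highest of all 6, and the other hsa_circ_0098181 samples lay within the range of the controls. The means were 152 ± 13.4 CPM (SD, n = 3) and 144 ± 4.79 CPM (SD, n = 3), and the log2 fold change was 0.076 with a standard error of 0.11 (interval at 95% confidence from -0.15 to 0.31, edgeR adjusted p = 0.800). This value rested on hsa_circ_0098181 replicate 1, because without that library it was -0.0019 (adjusted p = 0.997 from edgeR). With the library size alone it was -0.035 (adjusted p = 0.936 from edgeR).

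**Figure D1:**
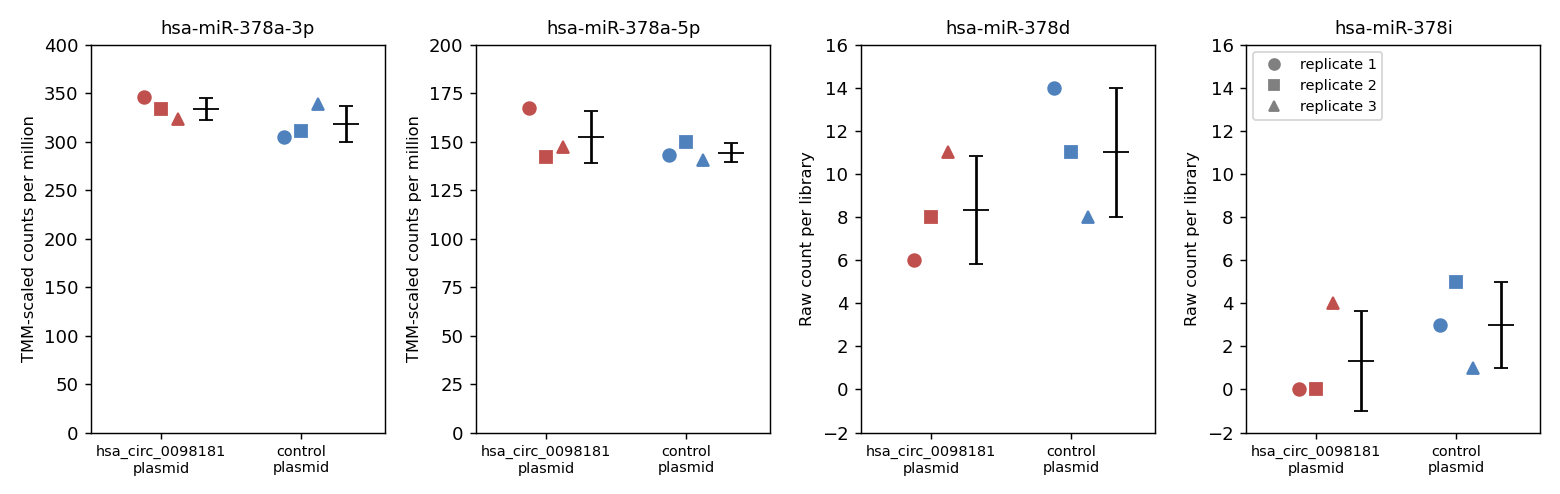
Levels of the counted members in each library, as TMM-scaled CPM for hsa-miR-378a-3p and hsa-miR-378a-5p and as raw counts for hsa-miR-378d and hsa-miR-378i, with a point for each replicate and the mean ± SD (n = 3) as a bar beside the points. The groups overlapped for all 4 miRNAs, and hsa-miR-378i was at 0 in hsa_circ_0098181 replicates 1 and 2.

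The products of MIR378A were found in nearly the same ratio in both groups. For each read of miR-378a-5p there were 2.07, 2.35 and 2.19 reads of miR-378a-3p in hsa_circ_0098181 replicates 1 to 3, and 2.13, 2.08 and 2.41 in the controls. The highest ratio was that of control replicate 3, and the groups overlapped. On the log2 scale the ratio, from which the library size cancels, was 1.14 ± 0.093 (SD, n = 3) with hsa_circ_0098181 and 1.14 ± 0.12 (SD, n = 3) with the control plasmid. The difference was -0.0020 (p = 1 in an exact two-sided permutation test, whose smallest p with these group sizes is 0.1), and it was between -0.050 and 0.064 when a sample was left out. Counting noise alone gives a standard deviation of 0.044 to 0.052 for this log2 ratio in a single library, below the spread between the replicates.

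Arms were paired by names that differ only in the ending -3p or -5p. Precursors named otherwise, such as that of miR-107, were left out. Among the precursors so paired with at least 6000 counts over both arms, the 5p product of miR-378a held a large share for a less abundant arm. It took 31.3% of the counts of both arms, place 9 of 103 precursors, against a median of 2.14%. Over the 6 libraries, the log2 ratio of the arms of miR-378a covered a range of 0.224. Of the 32 precursors with at least 3000 counts on each arm, 3 had a narrower range, and their median was 0.428, with values from 0.212 to 1.11. These are descriptions, since the precursors share the same libraries.

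**Figure D2:**
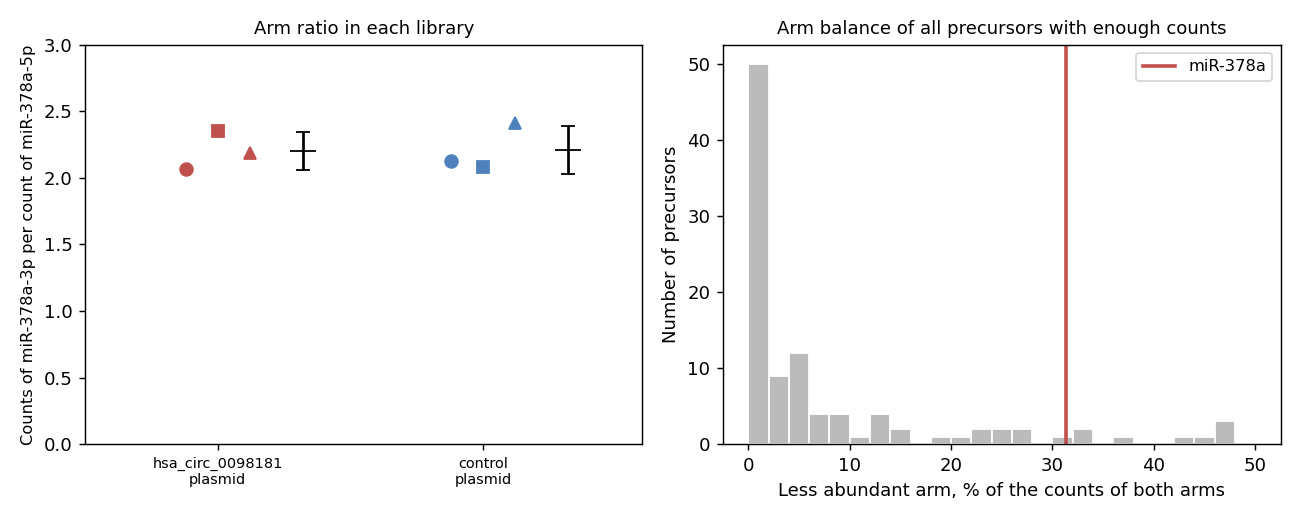
Left, counts of miR-378a-3p per count of miR-378a-5p in each library, with a point for each replicate and the mean ± SD (n = 3) as a bar, which lay between 2.07 and 2.41 in all 6 libraries. Right, number of precursors by the share of the less abundant arm in the counts of both arms (103 precursors paired by name), with miR-378a marked by the line at 31.3%.

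Among the members other than miR-378a-5p, miR-378a-3p took between 99.4% and 99.8% of the counts in each library. Pooled over the 6 libraries, hsa-miR-378d made up 0.347% of their 16723 counts (95% Wilson interval 0.268% to 0.448%) and hsa-miR-378i 0.0777% (95% Wilson interval 0.0454% to 0.133%). The counts of hsa-miR-378c and hsa-miR-422a were 0 of 16723 each, for which a limit of 3 counts is a share of 0.0179% and the upper end of the 95% Wilson interval is 0.0230%. In single libraries, 3 counts correspond to 0.278 to 0.420 TPM, so that a level under this may go uncounted. These intervals and limits cover counting error only. A count of 0 was found for 1222 of the 2588 rows of the table. The handling of reads that match more than a single member was not given in the sources used here, and its part in the 0 of miR-378c was not tested.

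hsa-miR-378d had 6, 8 and 11 reads in hsa_circ_0098181 replicates 1 to 3 and 14, 11 and 8 reads in the 3 controls. Its share of the counts of these members was 0.218%, 0.307% and 0.423% with hsa_circ_0098181 and 0.422%, 0.393% and 0.303% with the control plasmid, and the groups overlapped. Its log2 fold change was -0.18 with a standard error of 0.41 (interval at 95% confidence from -1.06 to 0.70, edgeR adjusted p = 0.871). The interval reached from 0.48 to 1.62 times the control level, so that these samples leave any level in this range possible. Without hsa_circ_0098181 replicate 1, this value was 0.0036 (edgeR adjusted p = 0.997).

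hsa-miR-378i had 0, 0 and 4 reads in hsa_circ_0098181 replicates 1 to 3 and 3, 5 and 1 reads in the 3 controls. These totals of 4 and 9 were too low for the filter, and no fold change was fitted for it with the filter. Of the 6 other miR-378 names in the table, which are no members here, 3 had a count (hsa-miR-378g with 9, hsa-miR-378f with 3 and hsa-miR-378e with 1), and no library held more than 2 of any of them.

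In all, 3 of the 6 members passed the filter on low counts, and 0 of them came under 0.05, adjusted or unadjusted. Among all 552 miRNAs tested, edgeR gave 0 (0%) with an adjusted p below 0.05, DESeq2 and limma gave 0 as well, and 50 (9.06%) had an unadjusted p under 0.05. The groups did not overlap for 85 of the 552 (15.4%) and for 0 of the 3 members. When control replicate 3 was left out, the adjusted p was below 0.05 for 56 of 565 miRNAs (9.91%) and for 0 of the 3 members. That fit gave a log2 fold change of 0.099 (standard error 0.084, edgeR adjusted p = 0.534) for miR-378a-3p and 0.039 (standard error 0.096, adjusted p = 0.863 from edgeR) for miR-378a-5p. Across every alternative, the adjusted p of miR-378a-3p was between 0.534 and 0.990 and that of miR-378a-5p between 0.791 and 0.998.

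**Figure D3:**
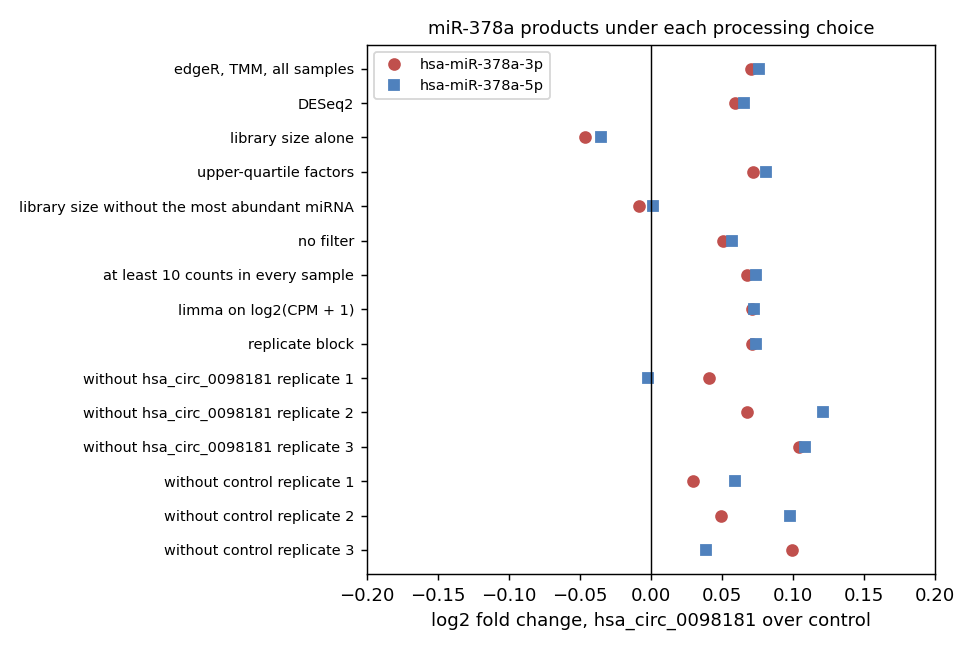
log2 fold change of hsa-miR-378a-3p (circles) and hsa-miR-378a-5p (squares) under each processing choice, named on the vertical axis. All values lay between -0.046 and 0.12, and those of both miRNAs were below 0 with the library size alone.

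Other miRNAs known to act on lipid and glucose metabolism gave a background for these values. Of a list of 20, 17 were tested, and 13 of these were more abundant than miR-378a-3p in TMM-scaled CPM. miR-122-5p, the dominant miRNA of hepatocytes, was at 991 times and miR-148a-3p, which acts on the LDL receptor, at 173 times the level of miR-378a-3p, whereas miR-33b-5p and miR-33a-5p, which lie in the genes of the SREBP factors and act on the cholesterol transporter ABCA1, were at 0.0503 and 0.0296 times its level. No length is divided out of these values, and how well each sequence is recovered was not measured. The log2 fold changes were above 0 for 10 and below 0 for 7, with a median of 0.0014 against 0.0038 over all tested miRNAs, and edgeR gave 0 of the 17 with an adjusted p below 0.05 (0% of all tested). With the library size alone, this split was 5 above and 12 below 0, while the median over all tested miRNAs was -0.11. In that fit miR-29b-3p had an adjusted p below 0.05 from edgeR, against 3 of all 552 tested.

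At an unadjusted p under 0.05 there were 4 of these 17, against 50 of all 552 tested (9.06%). The log2 fold change was -0.72 (standard error 0.25) for miR-33a-5p, -0.40 (standard error 0.10) for miR-29b-3p, 0.20 (standard error 0.066) for miR-122-5p and 0.17 (standard error 0.066) for miR-103a-3p, with adjusted p of 0.314, 0.295, 0.314 and 0.421 from edgeR. With the library size alone, the values of miR-122-5p and miR-103a-3p were 0.080 and 0.051, and with miR-122-5p left out of the library size 0.12 and 0.089. Without control replicate 3, the adjusted p was below 0.05 for 4 of the 17, against 56 of all 565 tested in that fit (9.91%). miR-122-5p was not among them, with a log2 fold change of 0.13 (edgeR adjusted p = 0.123). miR-33a-5p (-0.98, adjusted p = 6.65e-05 from edgeR), miR-29b-3p (-0.51, adjusted p = 8.74e-07) and miR-148a-3p (-0.21, adjusted p = 0.00658) were lower and miR-103a-3p (0.18, adjusted p = 0.0419) was higher with hsa_circ_0098181. These 4 calls were lost with all 6 samples, where miR-148a-3p had a log2 fold change of -0.11 (standard error 0.076, edgeR adjusted p = 0.618).

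**Figure D4:**
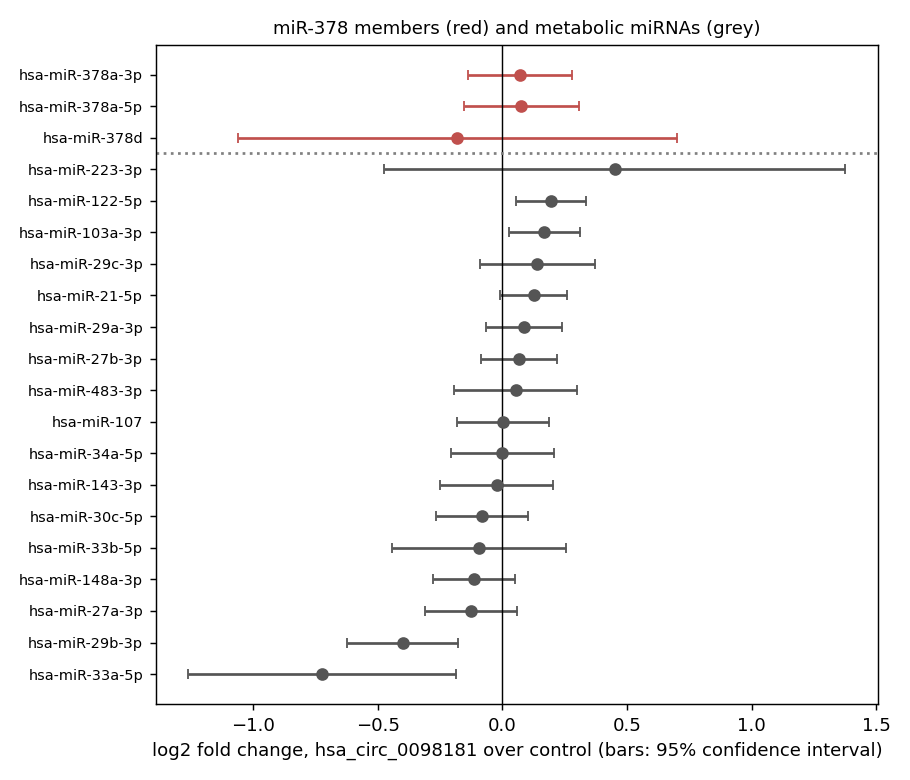
log2 fold change, hsa_circ_0098181 over control, of the 3 tested members (red) and of 17 metabolic miRNAs (grey), with the 95% confidence interval computed from the edgeR fit as a bar. The intervals of miR-378a-3p (-0.14 to 0.28) and miR-378a-5p (-0.15 to 0.31) include 0, and that of miR-378d is wider (-1.06 to 0.70).

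The miRNAs whose level followed that of miR-378a-3p most closely over the 6 libraries were found by Pearson's r of TMM-scaled log2(CPM + 1). Among the tested miRNAs outside the family, these were miR-6747-3p (r = 0.931), miR-2277-5p (r = 0.925) and miR-181b-5p (r = 0.915), and the most opposite were miR-590-5p (r = -0.966), miR-624-5p (r = -0.951) and miR-499a-5p (r = -0.951). miR-378a-5p, from the same precursor, reached an r of 0.375, place 153 of 552 counting miR-378a-3p itself, and miR-378d an r of -0.824. The mean levels were 2.77 CPM for miR-6747-3p, 8.64 CPM for miR-2277-5p and 237 CPM for miR-181b-5p. Those of miR-590-5p, miR-624-5p and miR-499a-5p were 182, 263 and 12.4 CPM, and miR-378d had only 6 to 14 reads per library. The named miRNAs are the extremes of 552, so that a high r is partly the result of this choice. These are descriptions over 6 libraries in which all miRNAs share the depth and the scaling, and miR-378a-3p itself covered only 305 to 346 CPM. It was at 339 CPM in control replicate 3, against 305 and 311 CPM in control replicates 1 and 2. In the same order, miR-590-5p was at 145 against 226 and 229 CPM, and miR-181b-5p at 269.5 against 211 and 218 CPM. How far the values of r rest on control replicate 3 was not tested.

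The seed match of miR-378a-3p, AGTCCAG, was looked for on the given strand of the transcripts of the study's genes in GENCODE release 29. It occurred 0 times in the 3991 bases of SOX5-202, a transcript of the host gene of hsa_circ_0098181, and 2 times in the 9965 bases of PPARA-201, a transcript of the lipid-sensing nuclear receptor PPARα. Of protein-coding transcripts within 10% of these lengths, 29.2% and 56.1% held it. GTCAGGA, the seed match of miR-378a-5p, occurred 0 times in SOX5-202 and 1 time in PPARA-201, against 25.6% and 54.3% of transcripts of similar length. The circular RNA itself was not searched.

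The labelled cell type was checked against marker miRNAs. The 3 hepatocyte miRNAs miR-122-5p, miR-192-5p and miR-194-5p summed to 346700 to 384000 TPM, whereas the 5 muscle miRNAs summed to 12.4 to 16.9 TPM, with miR-208b-3p at 0, and the 5 blood miRNAs to 13.3 to 19.1 TPM. The blood sum was 13.3 to 14.3 TPM in the hsa_circ_0098181 group and 17.0 to 19.1 TPM in the control group. The sum of miR-143-3p and miR-145-5p, of mesenchymal cells, was 81.6 to 88.7 against 90.5 to 99.5 TPM. TPM carries no TMM factors, and with these the groups overlapped for each of the mesenchymal miRNAs. Their log2 fold changes were -0.023 for miR-143-3p and -0.30 for miR-145-5p. The blood sum was computed in TPM only, and it does not speak for each blood miRNA. With TMM factors, miR-142-3p, of blood cells, had means of 9.59 CPM with hsa_circ_0098181 and 13.5 CPM with the control plasmid. The fitted value was -0.50 on the log2 scale (adjusted p = 0.314 from edgeR), and the groups did not overlap. For miR-223-3p and miR-150-5p, also of blood cells, it was above 0, at 0.45 and 0.46, and the groups overlapped. miR-126-3p, of endothelium, was at 3186 to 3271 TPM in the hsa_circ_0098181 group and at 3053 to 3165 TPM in the control group, so that the hsa_circ_0098181 samples were the higher ones here. For miR-126-3p the groups stayed apart with TMM factors, as they did for 15.4% of all tested miRNAs. The neuronal miR-124-3p and miR-9-5p summed to 115 to 131 against 98.7 to 149 TPM, and the groups overlapped. The part of these differences in the members' values was not tested.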

How the data were processed

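miRNA sequencing of 6 Huh7 samples was used, grouped by the sample labels (3 hsa_circ_0098181, 3 control). The authors deposited counts per mature miRNA and TPM values, and these TPM values equal the count scaled by the total of the sample to within 0.00303, without a length term. The submitters' processing notes name hg38, TopHat2 2.0.9 and Bowtie, without a role. Trimming, mismatches and multiple matches are not given in the sources used here.

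The comparison used edgeR 4.0.16 in R 4.3.3 (filterByExpr with a minimum count of 10 and a total of 15, TMM factors, quasi-likelihood test, group as the only term, two-sided, Benjamini-Hochberg adjustment over all miRNAs tested, threshold 0.05), which was tested on simulated data. The arm ratio was computed from counts with 0.5 added and tested by an exact permutation test. Alternatives were DESeq2 1.42.0, limma 3.58.1 on log2(CPM + 1), other scalings and filters, a replicate block and leaving out each sample. The replicate numbers were checked for pairing by correlations of same-numbered samples, which cannot show that pairing was absent.

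The members and lists were chosen with earlier results of these data known. Named were the members, the other miR-378 names, the 3 miRNAs most and least like miR-378a-3p and, of the metabolic list, the most abundant 2 and those at an unadjusted p under 0.05; miR-33b-5p was named after its values were seen.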

Additional observations from a re-analysis of the deposited data

How the results depend on the processing

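The log2 fold changes of the 3 tested members had 41 values over the alternatives, of which 36 kept their direction, 5 turned it and 0 came under the threshold. With the library size alone, that of miR-378a-3p was -0.046 and that of miR-378a-5p -0.035, and with miR-122-5p, the most abundant, also left out of the library size, that of miR-378a-3p was -0.0084. With a sample left out, the values were 0.030 to 0.10 for miR-378a-3p, -0.0019 to 0.12 for miR-378a-5p, -0.41 to 0.0036 for miR-378d and -0.050 to 0.064 for the difference of the log2 arm ratio. The count of miRNAs called at an adjusted p below 0.05 was 0, and it was 3 with the library size alone, 6 without a filter and 0 to 56 with a sample left out. The causes were not tested. Leaving out control replicate 3 gave the 56, and the 5 other fits gave 0, with 27 to 50 at an unadjusted p under 0.05.

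A replicate block gave a log2 fold change of 0.071 for miR-378a-3p and 0 called miRNAs (42 at an unadjusted p below 0.05). The deviations of same-numbered samples had correlations of -0.197, 0.186 and 0.150. Those of different-numbered samples were not computed, so that pairing was not settled. Same-numbered samples were not treated as pairs in the main fit. miR-378i was tested only without a filter, where its log2 fold change was -0.92 (adjusted p = 0.775 from edgeR), and miR-378d was not tested with at least 10 counts in every sample. No fit was possible for miR-378c and miR-422a, which had no count. The low counts limit miR-378d and miR-378i.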
